A study of Drosophila melanogaster with 19 samples.

Results

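Arrested spermatocyte cysts from *Drosophila melanogaster* mutant for *always early* (*aly*) were set against late spermatocyte cysts. The comparison uses 7 of the 19 labelled libraries, 2 of *aly* cysts, 3 of a first set of late spermatocytes (LC1) and 2 of a second set (LC2). RPKM are reads scaled to gene length and to a library size that differs from the read counts given below. Members of the comparison are the genes with at least 8 RPKM on its higher side. They were taken from genes that reached 1 RPKM in 2 or more of the 9 stages of the series. These were 9088 of the 12810 genes in the table. Late spermatocytes are the plain mean of LC1 and LC2, called late below. No group carries a recorded treatment, and the labels give neither the *aly* allele nor the strain, the age of the flies or what separates LC1 from LC2. Each library came from 1 cyst, picked by needle from a torn testis, so that a library holds a group of germ cells with the somatic cells around them. The labels' cell type field names germline stem cells for every sample, and the stage was therefore taken from the stage field.

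In the fly testis, germ cells divide in step as spermatogonia, grow for days as primary spermatocytes and transcribe most of what spermatids later use, then pass through meiosis. Aly is a subunit of the testis meiotic arrest complex (tMAC), which with testis-specific TBP-associated factors (testis TAFs) is required to switch on spermatocyte genes. Males that lack either complex stop as mature-looking primary spermatocytes and make no spermatids. The comparison therefore asks which transcripts of late spermatocytes are scarce in cysts that stop without Aly, and which are more abundant there.

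The deposited table holds 1 value per stage, the plain mean of its libraries, and whole reads per library were solved for from it. The LC2 mean proved to be built from 3 libraries although 2 are labelled, which makes 2 *aly* libraries and 6 late libraries. The labels do not say what the third is, so it may be another run of a labelled sample, and the n of 6, with the SE and p-values that use it, may count 1 sample as more than 1. Without any 1 of the 3 LC2 libraries, 1483 to 1783 genes rose in *aly* and 2105 to 2350 fell. Libraries of a group are lettered by depth. *aly* libraries held 5108373 and 3776102 reads, LC1 libraries 4442827, 3804518 and 2535849, and LC2 libraries 3052576, 2811038 and 1439602. In a gene of 1 kb, 3 reads are worth 0.611 and 0.879 RPKM in *aly* and 0.893 to 2.56 RPKM in the late ones. They are worth 1.85 to 2.78 RPKM in the 3 libraries of early spermatocytes and 3.22 RPKM in the 1 library of 16-cell spermatogonia. This floor covers counting error only. Pearson's r of log2(RPKM + 1), taken over genes, which are not independent replicates, was 0.979 between the *aly* libraries, 0.876 to 0.983 among late libraries, 0.486 to 0.670 between *aly* and late libraries, and 0.776 to 0.869 between *aly* libraries and those of early spermatocytes (EC). No library held more than 1 read per base of a gene. That limit differs between libraries with their depth, and its mean over the libraries of a group is 248 RPKM in *aly*, 387 RPKM in LC1 and 546 RPKM in LC2, so the most abundant transcripts are held to a lower RPKM in *aly* cysts. Differences are limma log2 differences of RPKM + 1, *aly* minus late, ± SE with 2 and 6 libraries. "Rose" and "fell" are kept for genes with a Benjamini-Hochberg adjusted p under 0.05. Nothing in the labels says whether libraries of a group came from separate males, so p-values measure the spread between libraries. That spread, and with it the SE, was pooled over the groups of the whole series, not taken from *aly* and late libraries alone. A gene without a call may therefore reflect spread within other stages.

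The gene *aly* itself was read at 33.4 and 30.4 RPKM in the *aly* libraries. Late libraries held 42.3 to 70.2 RPKM, with a median of 59.9. All *aly* values lay below all late values, but the difference did not pass the test (-0.82 ± 0.40, adjusted p = 0.118). Its stage value in early spermatocytes was 103 RPKM, against which it fell (adjusted p = 0.0204). On BDGP6.54 *aly* lies on 3L from 3024129 to 3026521. With the allele not given, the level of its RNA does not check the genotype.

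More genes fell in *aly* cysts than rose, and the decreases were larger. But more rose than fell once quantiles of the single libraries were made equal, or with libraries of *aly*, LC1 and LC2 only. Of 9085 genes that could be fitted, 2251 fell in *aly* cysts, which is 24.8% of them, and 1724 rose, which is 19.0%. Stage values at least 4-fold lower in *aly* were found for 1909 of 9088 genes (21.0%) and at least 4-fold higher for 780 (8.58%). Among genes that fell, 752 were 16- to 64-fold lower in stage values and 208 at least 64-fold lower. Among genes that rose, 33 were 16- to 64-fold higher and 0 at least 64-fold higher. The *aly* libraries both lay below all 6 late libraries for 2196 of the genes that fell, and above them for 1641 of the genes that rose. The calls were made on these same libraries, so such separation follows largely from the selection and adds no support. It was not counted over all genes. With libraries of *aly*, LC1 and LC2 only, 2902 genes rose and 2845 fell. With library quantiles made equal, 3527 genes rose and 2234 fell, so the share of calls that were higher was 61.2% there against 43.4% here. Against LC1 alone 938 rose and 1957 fell, and against LC2 alone 2012 rose and 2412 fell. Counts of list members under another setting, given below, are to be read against these totals, not against 19.0% and 24.8%. The count of genes that rose rests on both *aly* libraries, with 785 without the deeper and 772 without the shallower of them.

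**Figure D1:**
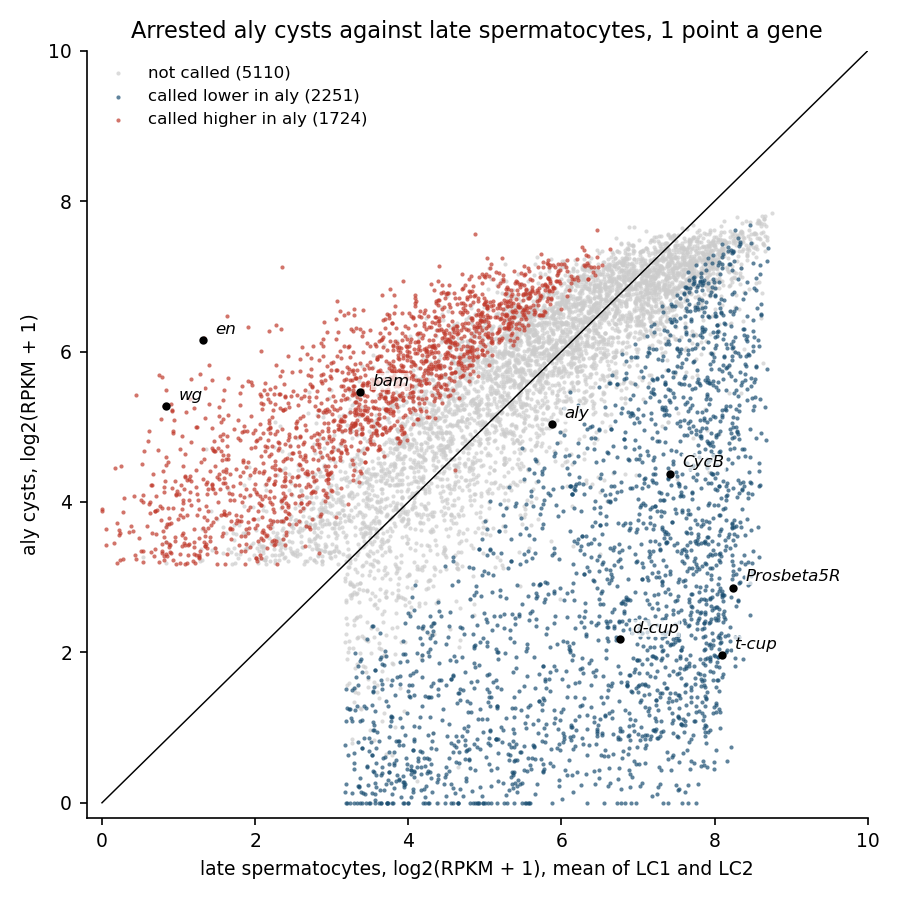
Stage values of 9085 genes in *aly* cysts (vertical axis) and late spermatocytes (horizontal axis), as log2(RPKM + 1), 1 point a gene, with calls in colour. The 2251 genes that fell spread down to 0 in *aly*, while the 1724 genes that rose stay nearer the line of equal values.

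The 3 genes that mark late spermatocytes and later cells were nearly silent in *aly* cysts. *Prosbeta5R* (now *Prosbeta5R1*), a testis form of the beta 5 proteasome subunit, had 8.29 and 4.24 RPKM in *aly* libraries, against 195 to 437 RPKM in late ones with a median of 282. Its difference was -5.39 ± 0.54 (adjusted p = 9.92e-07). *t-cup* had 2.56 and 3.27 RPKM in *aly*, against 168 to 476 RPKM in late libraries with a median of 213 (-6.02 ± 0.54, adjusted p = 3.36e-07). *d-cup* had 4.25 and 2.78 RPKM in *aly*, against 61.1 to 212 RPKM in late libraries with a median of 91.5 (-4.49 ± 0.46, adjusted p = 1.25e-06). Both cup genes are named for transcripts that sit at one end of elongating spermatids. In each case the *aly* and late libraries were far apart, and the EC stage value, 5.30, 2.08 and 1.76 RPKM in the same order of genes, was also low. On BDGP6.54 *Prosbeta5R* lies on 2R from 23308654 to 23309816, *t-cup* on 2L from 12496616 to 12497333 and *d-cup* on 3R from 12891956 to 12893158.

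The 12 largest decreases had at most 4 reads over both *aly* libraries. Their late libraries ran from 93.0 to 561 RPKM. *CG34274*, on 3R, had no read in either *aly* library, and its LC1 libraries held 156, 127 and 164 RPKM, its LC2 libraries 136, 352 and 363 RPKM (adjusted p = 2.76e-08). *CG42493*, *robl37BC* and the non-coding *CR43485* had no read in *aly* either. *robl37BC*, a dynein light chain of the roadblock family, had 111 to 280 RPKM in late libraries (adjusted p = 2.81e-07). *Dic3*, a mitochondrial dicarboxylate carrier, had 0.202 and 0 RPKM in *aly*, from 1 read, against 121 to 300 RPKM in late libraries (-7.42 ± 0.35, adjusted p = 1.19e-08). The other members of this group, *CG43321*, *CG43450*, *CG32117*, *CG42597*, *CG13725*, *CG43049* and *CG6576*, carry only a number. The EC stage values of the 12 genes ran from 1.94 to 15.1 RPKM, and all were at 0 in 16-cell (S16) spermatogonia. In *aly* libraries 69 of the 2251 genes that fell had no read at all. At so few reads the fitted value depends on the pseudocount and bounds no fold.

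Of the 12 largest increases, 11 were at or below 3.98 RPKM in each late library, and several are known from other tissues. *en*, a homeodomain transcription factor of segmentation, had 65.7 and 74.7 RPKM in *aly*, against 0 to 3.78 RPKM in late libraries (5.07 ± 0.32, adjusted p = 2.76e-08). *wg*, a Wnt ligand, had 41.9 and 33.5 RPKM in *aly*, against 0.139 to 1.39 RPKM in late libraries (4.47 ± 0.66, adjusted p = 5.13e-05). Both stood at 0 in early spermatocytes and in the 1 library of 16-cell spermatogonia, where the floor is higher than in *aly* libraries. *trpl*, a cation channel of photoreceptors, had 75.1 and 68.4 RPKM in *aly*, against 0 to 3.06 RPKM in late libraries (5.01 ± 0.44). *CG6201* (now *Idua*), the fly alpha-L-iduronidase, a lysosomal enzyme, had 91.3 and 83.7 RPKM in *aly*, against 0 to 3.98 RPKM in late libraries (5.11 ± 0.43). *Jhedup*, a copy of juvenile hormone esterase, had 45.0 and 56.5 RPKM in *aly* and at most 1.05 RPKM in any late library. The cadherin *Cad88C* had 61.5 and 49.9 RPKM in *aly*, against 0 to 3.33 RPKM in late libraries. The pseudogene *CR33319* had 121 and 155 RPKM in *aly*, 0 in all 3 LC1 libraries and 1.15, 13.5 and 10.1 RPKM in LC2. The remaining members, *CG5892*, *pot*, *CG10132*, *CG4133* and *CG17270*, had 32.0 to 59.7 RPKM in *aly* libraries and at most 2.71 RPKM in late ones. All 12 also rose against early spermatocytes, in a comparison that shares the *aly* libraries, and the highest EC value among them was 4.81 RPKM. Over all genes, 972 of 8134 rose in *aly* against EC (11.9%) and 857 fell (10.5%).

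**Figure D2:**
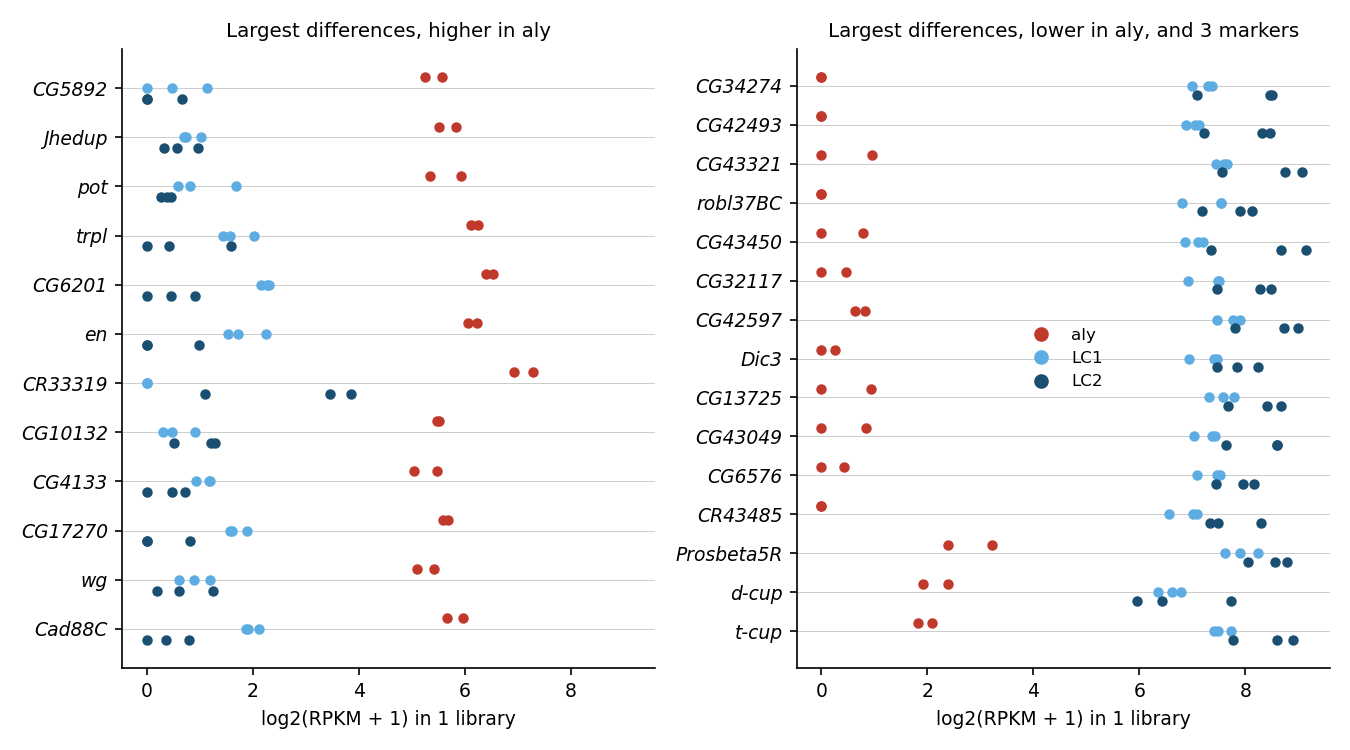
Values of single libraries, as log2(RPKM + 1), for the 12 largest increases (left panel) and the 12 largest decreases with the 3 markers (right panel), *aly* in red, LC1 in light blue and LC2 in dark blue. The 24 genes with the largest differences were chosen among genes whose libraries do not overlap, and the 3 markers do not overlap either.

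Of 9 tMAC subunits 1 rose and 0 fell, of 5 testis TAFs none passed the test, and the medians of their differences were 0.75 and 0.08, against 0.04 over all genes fitted, of which 19.0% rose and 24.8% fell. With library quantiles made equal 4 tMAC subunits and 1 testis TAF rose, and against LC2 alone 4 tMAC subunits rose and 1 fell. Over all genes 3527 rose with equal library quantiles and 2012 against LC2 alone, where 1724 rose without these changes. With libraries of *aly*, LC1 and LC2 only, 2 tMAC subunits rose and 2 fell, and 1 testis TAF rose. Over all genes 2902 rose and 2845 fell there. *can*, a testis TAF, had 120 and 133 RPKM in *aly*, against 33.0 to 81.8 RPKM in late libraries (1.25 ± 0.49, adjusted p = 0.0557). *sa* had 129 and 151 RPKM in *aly*, against 153 to 226 RPKM in late libraries (-0.38 ± 0.74). *nht*, *mia* and *Taf12L* had differences of 0.13, 0.08 and -0.66 with SE of 0.68 to 1.22. The tMAC member that rose was *vis*, a homeodomain protein, with 47.2 and 58.6 RPKM in *aly*, against 37.3 to 46.9 RPKM in LC1 and 1.56 to 15.5 RPKM in LC2 (adjusted p = 0.0401). That call was lost when any 1 of the 3 LC1 or the 2 *aly* libraries was left out. *achi*, its near-identical neighbour, with which it may share reads, had 54.9 and 68.3 RPKM in *aly*, against 37.5 to 44.5 RPKM in LC1 and 3.96 to 10.6 RPKM in LC2 (1.71 ± 0.68, adjusted p = 0.0591). *comr*, *tomb* and *topi* had positive differences of 0.93, 0.46 and 0.81, and *wuc* and *mip40* negative ones of -0.34 and -0.58, all without a call. Of 8 genes of the general dREAM complex, *mip120* (1.62 ± 0.49, adjusted p = 0.0165) and *Dp* (1.43 ± 0.40, adjusted p = 0.0108) rose and 0 fell, with a list median of 1.06. With libraries of *aly*, LC1 and LC2 only 6 of the 8 rose, where 2902 of all genes did. Both calls were lost without either *aly* library.

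The list of 13 chromatin and transcript processing factors also holds the syntaxin gene *Syx5*. Of the 13, 1 rose and 0 fell, below the 19.0% and 24.8% of all genes. It was *mod(mdg4)* (25.0 and 25.0 RPKM in *aly*, against 8.73 to 13.6 RPKM in late libraries, adjusted p = 0.00886), and that call was lost without either *aly* library. The bromodomain gene *CG13597* (now *tbrd-1*) had 178 and 232 RPKM in *aly*, against 144 to 267 RPKM in late libraries. *bol*, the RNA-binding protein that meiotic entry needs, had 71.7 and 87.4 RPKM in *aly*, against 129 to 280 RPKM in late libraries, without a call (-1.26 ± 0.60, adjusted p = 0.111). The list median was 0.13, and with library quantiles made equal it was 1.05 and 5 of the 13 rose. Over all genes 3527 rose with equal library quantiles.

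Of 16 genes of meiotic division 2 fell and 1 rose, shares below those of all genes (24.8% and 19.0%). *bol*, *Rbp4* and *CG9975* are members of this list and of the list before it. *twe*, the meiotic Cdc25 phosphatase, had 48.2 and 45.8 RPKM in *aly*, against 141 to 229 RPKM in late libraries with a median of 180 (-1.93 ± 0.55, adjusted p = 0.0115). *CycB*, a cyclin partner of Cdk1, had 25.8 and 13.7 RPKM in *aly*, against 121 to 212 RPKM in late libraries with a median of 172 (-3.07 ± 0.82, adjusted p = 0.00727). The groups did not overlap for either gene. The call for *twe* was lost without either *aly* library, and that for *CycB* without the shallower one. Their EC stage values were 49.4 and 8.43 RPKM. The gene that rose was the kinesin *ncd* (1.36 ± 0.33, adjusted p = 0.00429), which lost its call without the shallower *aly* library. The others included *CycA* (0.55 ± 0.44), *cdc2*, which encodes Cdk1 (0.49 ± 0.26), *polo* (-0.16 ± 0.28) and the APC activator *fzy* (-0.19 ± 0.33). *Cks30A*, *mtrm* and *fzy* rose against EC, at 89.5 and 88.5 RPKM for *Cks30A* in *aly* against an EC value of 4.78 RPKM. The median of the list was -0.22, and 0.63 with library quantiles made equal, where 4 rose, as did 3527 of all genes. With libraries of *aly*, LC1 and LC2 only, 4 fell.

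In the mitosis list 3 of 15 genes rose and 3 fell, shares near the 19.0% and 24.8% of all genes, and the median was 0.18. With library quantiles made equal 10 rose and the median was 1.05, and against LC1 alone 0 rose. Over all genes 3527 and 938 rose, in the same order. *pav*, a kinesin of cytokinesis, had 94.6 and 90.0 RPKM in *aly*, against 7.70 to 30.6 RPKM in late libraries (2.38 ± 0.61, adjusted p = 0.00547), a call lost without either *aly* library. *Klp61F*, the spindle kinesin, had 72.2 and 82.4 RPKM in *aly*, against 10.9 to 45.1 RPKM in late libraries (1.70 ± 0.38, adjusted p = 0.00218), and *ncd* was the other that rose. *pim*, the fly securin, had 45.7 and 52.2 RPKM in *aly*, against 112 to 348 RPKM in late libraries (-1.82 ± 0.39, adjusted p = 0.00153). *CycB3* (-1.09 ± 0.37, adjusted p = 0.0273) fell with it and with *CycB*, but its call was lost without any 1 of 5 libraries. The mitotic Cdc25 gene *stg* was near 0 in both groups, at 0.668 and 0.480 RPKM in *aly* and 0 to 1.81 RPKM in late libraries.

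In the replication list 5 of 14 rose and 2 fell, with a median of 1.67, where 19.0% of all genes rose and 24.8% fell. With library quantiles made equal, or with libraries of *aly*, LC1 and LC2 only, 10 rose, and against LC1 alone 3 did. Over all genes 3527, 2902 and 938 rose, in the same order. *Orc2*, an origin recognition subunit, had 38.3 and 58.5 RPKM in *aly*, against 0.676 to 11.2 RPKM in late libraries (2.99 ± 0.62, adjusted p = 0.0012). *Mcm5*, of the replicative helicase, had 85.7 and 89.7 RPKM in *aly*, against 8.86 to 22.1 RPKM in late libraries (2.38 ± 0.55, adjusted p = 0.00299). These 2 calls held without any 1 library. *Mcm6* (adjusted p = 0.0218), the large ribonucleotide reductase subunit *RnrL* (2.15 ± 0.60) and the polymerase subunit *DNApol-alpha180* (adjusted p = 0.0371) also rose. Those calls were lost without either *aly* library, and for *DNApol-alpha180* also without any 1 of 4 late libraries. *CycE*, the G1/S cyclin, went the other way, with 1.13 and 0.241 RPKM in *aly*, against 29.2 to 73.3 RPKM in late libraries (-4.74 ± 0.87, adjusted p = 0.000436). *geminin*, an inhibitor of origin licensing, also fell (-0.73 ± 0.23, adjusted p = 0.0218), and lost its call without either *aly* library.

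Of 23 sperm chromatin and tail genes 9 fell and 0 rose, with a median difference of -1.26, where 24.8% of all genes fell and 19.0% rose. *Mst33A* had 40.0 and 18.6 RPKM in *aly*, against 258 to 703 RPKM in late libraries with a median of 339 (-3.68 ± 0.48, adjusted p = 1.42e-05). *Mst35Bb*, one of a pair of near-identical protamine genes that replace histones in sperm, had 24.5 and 18.7 RPKM in *aly*, against 135 to 494 RPKM in late libraries (-3.25 ± 0.46, adjusted p = 3.91e-05). *fzo*, a mitofusin that joins spermatid mitochondria, had 10.3 and 7.48 RPKM in *aly*, against 22.1 to 43.6 RPKM in LC1 and 198 to 238 RPKM in LC2 (-3.06 ± 0.39, adjusted p = 1.17e-05). These calls held without any 1 library. *Mst36Fb*, *dj* and *djl* fell, with differences of -3.39, -2.27 and -2.12, and lost their calls without the shallower *aly* library. *Mst35Ba*, *Tpl94D* and *janB* fell, with differences of -2.14, -2.23 and -1.26, and lost theirs without any 1 of 5 to 7 libraries. Over the 8 fits that leave out 1 library, 3 to 11 genes of the list fell. With libraries of *aly*, LC1 and LC2 only 14 fell, and with a pseudocount of 0.1 5 fell.

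The 14 sperm genes without a call were mostly abundant in both groups. *betaTub85D*, the testis beta tubulin, had 179 and 228 RPKM in *aly*, against 278 to 609 RPKM in late libraries (-0.87 ± 0.54, adjusted p = 0.224). Its reads stood at 82.7% of 1 read per base in *aly* and at 85.9% in late libraries. *Mst77F*, a linker-histone-like sperm protein, had 120 and 121 RPKM in *aly*, against 248 to 717 RPKM in late libraries, and stood at 50.1% and 81.2% of the limit. In 10 of the 14 the *aly* reads were over 50% of the limit, as in 927 of the 5110 genes without a call over the whole table. With reads corrected for the limit, 12 of the 23 fell, *Mst77F* among them (-2.11, adjusted p = 0.0141), and *betaTub85D* had an adjusted p of 0.154.

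Of 9 sperm leucyl aminopeptidases, among the most abundant proteins of fly sperm, 2 fell and 0 rose, where 24.8% of all genes fell and 19.0% rose. *S-Lap5* had 41.2 and 39.7 RPKM in *aly*, against 179 to 282 RPKM in late libraries (-2.49 ± 0.49, adjusted p = 0.000751), and *grsm* fell by 0.81 (adjusted p = 0.00623), a call lost without the deeper *aly* library. The other 7 of the 9 genes had differences of -0.71 to -1.09, and all 7 stood over 50% of the limit in *aly*. *S-Lap4* had 162 and 203 RPKM in *aly*, against 278 to 701 RPKM in late libraries (adjusted p = 0.072), and with the correction for the limit an adjusted p of 0.01. With that correction 4 of the 9 fell, and 5 had an adjusted p of 0.0646 to 0.387. The list median was -0.93, and 0.01 with library quantiles made equal, where 1 fell. With libraries of *aly*, LC1 and LC2 only 5 of the 9 fell.

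**Figure D3:**
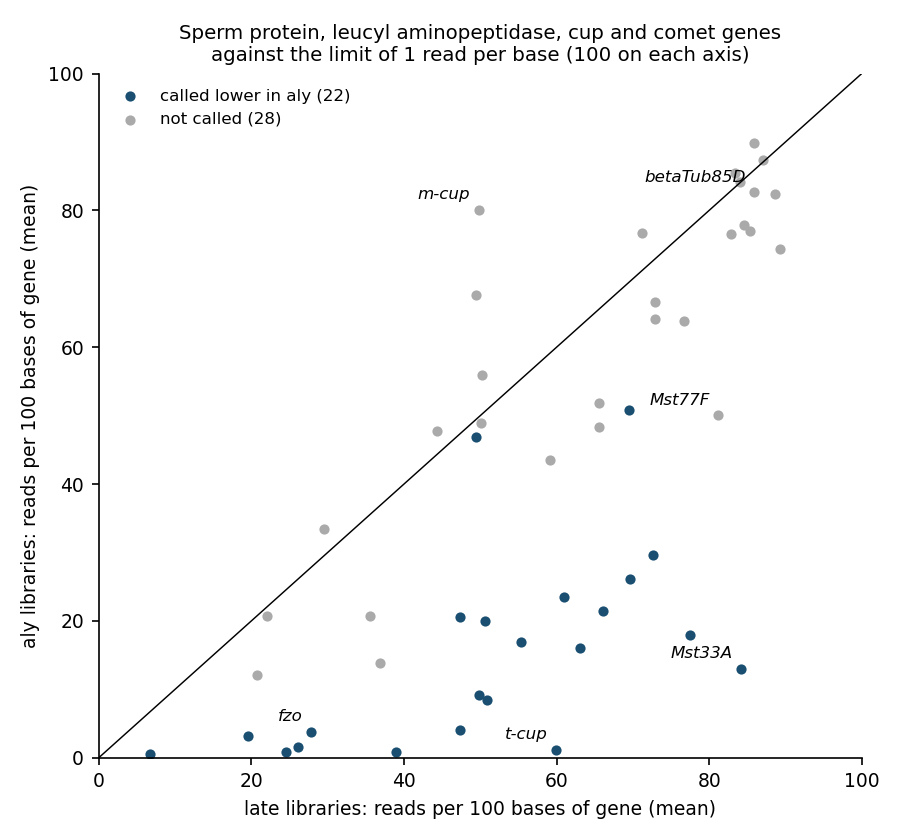
Mean reads per 100 bases in *aly* libraries (vertical axis) and late libraries (horizontal axis) for 50 sperm protein, leucyl aminopeptidase, cup and comet genes, where 100 is the limit of 1 read per base. The 28 genes without a call have a median of 65.3 in *aly*, and the 22 that fell a median of 14.5.

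Cup and comet genes, which are transcribed late and whose RNA lies at one end of the spermatid bundle, had 11 of 19 members lower and 0 higher, where 24.8% of all genes were lower and 19.0% higher. The 11 calls held in each fit that left out 1 library. Beside *t-cup* and *d-cup*, *sunz* had 2.48 and 1.298 RPKM in *aly*, against 110 to 262 RPKM in late libraries (-5.82 ± 0.46, adjusted p = 1.19e-07). *p-cup* had 2.50 and 1.56 RPKM in *aly*, against 61.4 to 135 RPKM in late libraries (-5.04 ± 0.37, adjusted p = 6.54e-08). *h-cup* had 12.9 and 5.69 RPKM in *aly*, against 138 to 280 RPKM in late libraries (-4.37 ± 0.49, adjusted p = 2.83e-06). *s-cup*, *cola*, *w-cup*, *c-cup*, *boly* and *wa-cup* fell, with differences of -3.62, -3.25, -3.13, -2.88, -2.48 and -1.92. The other 8 genes did not pass the test. *m-cup* had 174 and 219 RPKM in *aly*, against 125 to 297 RPKM in late libraries (0.02 ± 0.40), and *schuy*, *hale*, *soti* and *whip* had 110 to 142 RPKM in *aly* libraries and 131 to 578 RPKM in late ones. Against EC, where *schuy* stood at 5.48 RPKM and *hale* at 14.6 RPKM, 7 of 13 members at 8 RPKM or more rose in *aly* and 0 fell, where 11.9% of all genes rose and 10.5% fell. They were *schuy*, *hale*, *soti*, *whip*, *m-cup*, *r-cup* and *wa-cup*. The list median against late spermatocytes was -2.48. With library quantiles made equal 12 of the 19 fell and 1 rose against late spermatocytes.

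**Figure D4:**
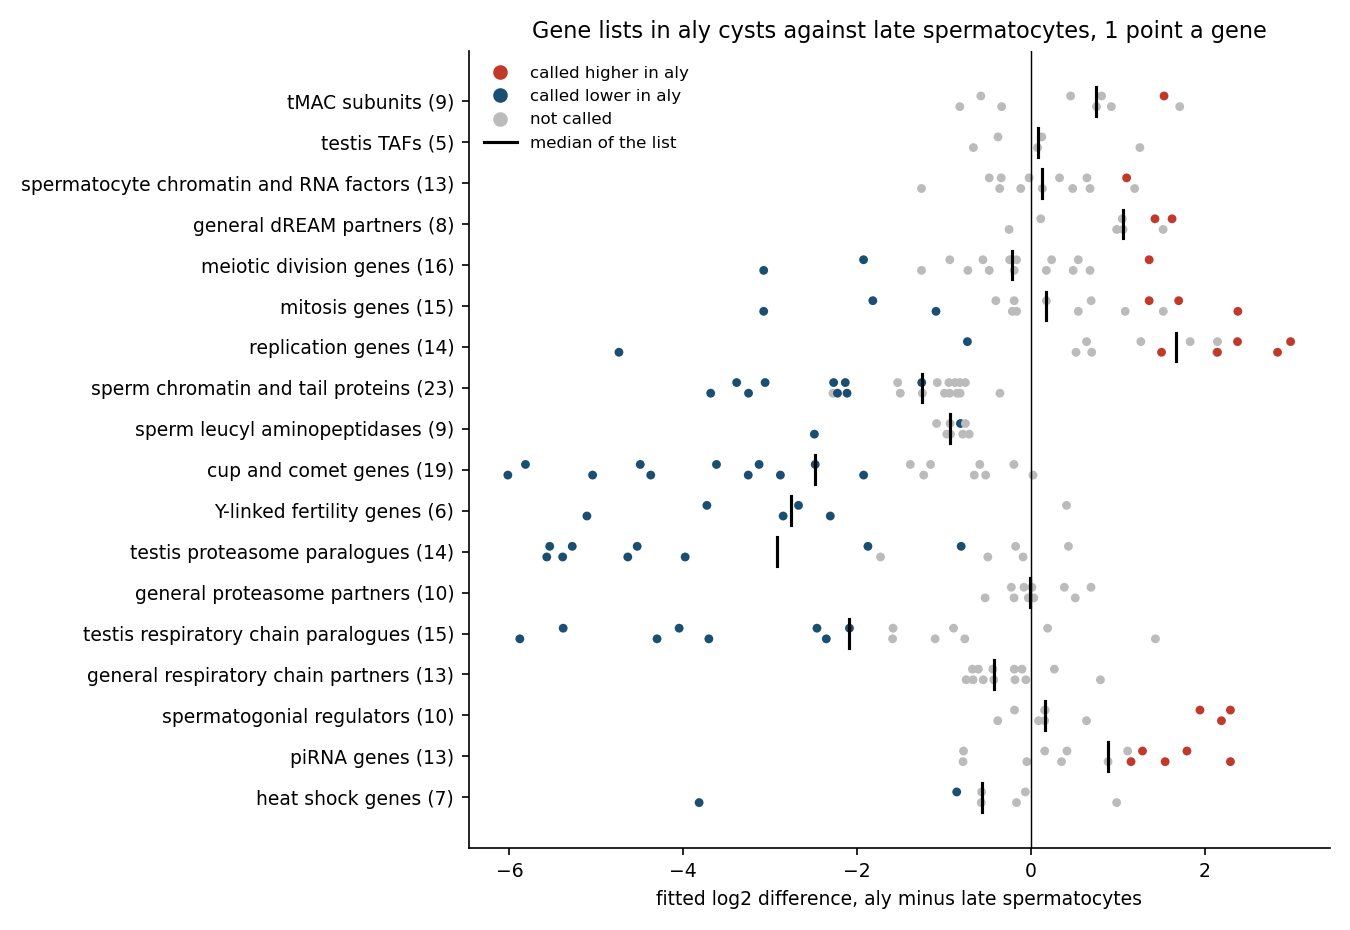
Fitted log2 differences, *aly* minus late, of the members at 8 RPKM or more of 18 gene lists, 1 point a gene, red or blue where called and grey where not, with the list median as a bar. The testis proteasome, testis respiratory chain, cup and comet and Y-linked lists reach below -5, while tMAC, testis TAF and general proteasome genes stay between -1 and 2.

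Most testis forms of the proteasome fell, while no general form passed the test. The proteasome degrades tagged proteins, and late male germ cells of the fly swap several of its subunits for testis paralogues. Of 14 testis paralogues 9 fell and 0 rose, with a median difference of -2.93, where 24.8% of all genes fell and 19.0% rose. With library quantiles made equal 8 of the 14 fell and 2 rose. Of 10 general partners none was called, with a median of -0.01, although 5 rose with equal library quantiles and 1 fell against LC2 alone. Over all genes 3527 rose with equal library quantiles and 2412 fell against LC2 alone. *Prosalpha3T* had 2.94 and 1.69 RPKM in *aly*, against 77.7 to 267 RPKM in late libraries (-5.28 ± 0.59, adjusted p = 3.2e-06). Its general partner *Pros29* (*Prosalpha3*) had 157 and 199 RPKM in *aly*, against 173 to 368 RPKM in late libraries (-0.53 ± 0.25, adjusted p = 0.106). *Pros28.1B* (*Prosalpha4T2*) had 5.97 and 2.60 RPKM in *aly*, against 148 to 331 RPKM in late libraries (-5.57 ± 0.52, adjusted p = 5.36e-07). The general *Pros28.1* (*Prosalpha4*) had 54.2 and 63.9 RPKM in *aly*, against 32.7 to 128 RPKM in late libraries (-0.19 ± 0.36). *Prosbeta4R2*, *CG31742* (*Prosbeta5R2*), *Prosalpha6T* and *Prosbeta4R1* fell, with differences of -5.54, -4.64, -4.53 and -3.98, each also in every fit without 1 library. *Prosbeta5*, partner of the marker *Prosbeta5R*, had 123 and 146 RPKM in *aly*, against 51.5 to 178 RPKM in late libraries.

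The set was not uniform. *Pros28.1A*, another alpha 4 paralogue, had 66.4 and 63.5 RPKM in *aly*, against at least 142 RPKM in late libraries, with a median of 225 (-1.87 ± 0.48, adjusted p = 0.00562), and an EC value of 4.33 RPKM, so that it also rose against EC. Its call was lost without the shallower *aly* library. *Rpt3R* fell by 0.80 (adjusted p = 0.0235), a call lost without either *aly* library. *Prosbeta2R1* had 152 and 167 RPKM in *aly*, against 89.4 to 268 RPKM in late libraries (-0.09 ± 0.52), and 23.3 RPKM in EC. *Rpt4R*, *Rpt6R* and *Rpn12R*, of the regulatory particle, had differences of 0.43, -0.18 and -0.50 without a call and stood at 56.8% or more of the read limit in *aly*. *Prosbeta2R2* had 56.2 and 82.9 RPKM in *aly*, against 134 to 301 RPKM in late libraries (adjusted p = 0.0792).

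In mitochondrial respiration, of 15 testis paralogues of respiratory chain subunits 8 fell and 0 rose, where 24.8% of all genes fell and 19.0% rose. The median was -2.09, and the 8 calls held in each fit without 1 library. With libraries of *aly*, LC1 and LC2 only 13 fell and 1 rose, and with library quantiles made equal 8 fell and 1 rose. Of 13 general partners none was called, with a median of -0.43. It became 0.26 with equal library quantiles, where 3 rose, as did 3527 of all genes. Against LC2 alone 6 of the 13 fell, with a median of -0.61, as did 2412 of all genes. *CG30093* (*COX6AL*), a cytochrome oxidase subunit, had 3.88 and 3.35 RPKM in *aly*, against 133 to 635 RPKM in late libraries (-5.88 ± 0.63, adjusted p = 1.96e-06). Its general partner *levy* had 116 and 141 RPKM in *aly*, against 81.8 to 331 RPKM in late libraries (-0.44 ± 0.33). *CG8102* (*ND-51L2*), of complex I, had 3.91 and 1.31 RPKM in *aly*, against 94.1 to 206 RPKM in late libraries (-5.38 ± 0.58, adjusted p = 2.23e-06), while its partner *CG9140* (*ND-51*) had 61.5 and 58.5 RPKM in *aly*, against 48.0 to 89.7 RPKM in late libraries (-0.19 ± 0.27). *CG14077* (*COX6AL2*), *CG12027* (*ATPsynCF6L*) and *CG11043* (*COX5BL*) fell, with differences of -4.30, -4.05 and -3.71. *CG11423* (*ND-51L1*), *CG18193* (*COX7AL*) and *CG6485* (*ND-24L*) were the others, at -2.46, -2.35 and -2.09.

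Testis respiratory genes without a call included *CG10396* (*COX4L*), with 153 and 189 RPKM in *aly*, against 244 to 758 RPKM in late libraries, at 69.9% and 85.2% of the read limit. *CG7349* (*SdhBL*), a paralogue of the succinate dehydrogenase iron-sulphur subunit, went the other way. It had 172 and 232 RPKM in *aly*, against 163 to 280 RPKM in LC1 and 12.6 to 34.7 RPKM in LC2 (1.43 ± 0.57, adjusted p = 0.0579), and with the correction for the read limit its difference was 2.17 (adjusted p = 0.008).

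**Figure D5:**
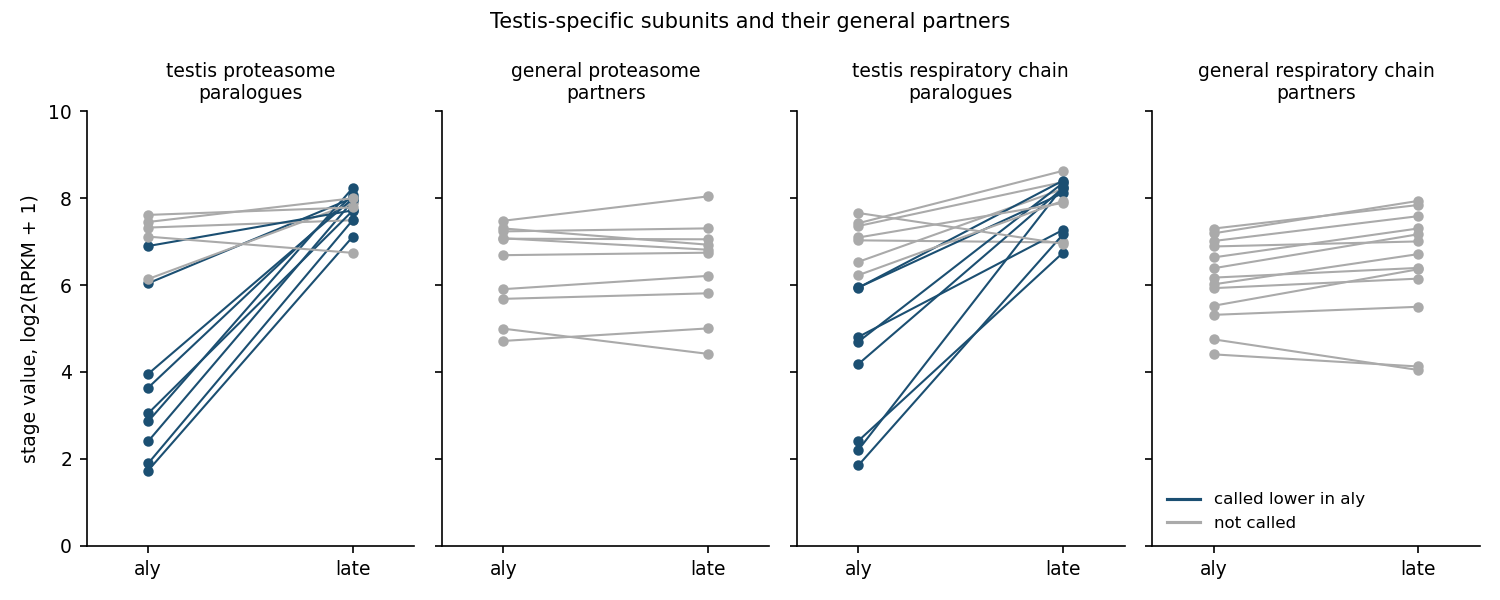
Stage values, as log2(RPKM + 1), of testis proteasome and respiratory chain paralogues and of their general partners, *aly* on the left of each panel and late on the right, 1 line a gene, blue where it fell in *aly*. In the panels of partners no line is blue.

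Genes of the Y chromosome, which is transcribed in spermatocytes and carries fertility factors, were low in *aly*. Of 6 Y-linked genes at 8 RPKM or more 5 fell and 0 rose, with a median of -2.76, where 24.8% of all genes fell and 19.0% rose. Against LC2 alone 4 fell and 1 rose. *Pp1-Y2*, a phosphatase gene, had 0.496 and 0.238 RPKM in *aly*, against 35.7 to 72.01 RPKM in late libraries (-5.11 ± 0.35, adjusted p = 3.97e-08). *Ppr-Y* had 0 and 0.213 RPKM in *aly*, against 9.35 to 38.7 RPKM in late libraries (-3.73 ± 0.43, adjusted p = 4.72e-06). *ARY* had 14.6 and 19.7 RPKM in *aly*, against 84.7 to 192 RPKM in late libraries (-2.67 ± 0.46, adjusted p = 0.000222). *kl-2*, a dynein heavy chain of the sperm axoneme, had 0.115 and 0.0942 RPKM in *aly*, against 1.3 to 18.8 RPKM in late libraries (-2.85 ± 0.46, adjusted p = 0.000124). *Ory* fell by 2.31 and lost its call without either *aly* library. The sixth, the dynein heavy chain gene *kl-5*, had 13.1 and 15.4 RPKM in *aly*, against 2.27 to 30.1 RPKM in late libraries (0.41 ± 0.47) and 1.24 RPKM in EC, against which it rose. *kl-3*, another dynein heavy chain gene, stayed under 8 RPKM on the higher side, at 1.58 and 1.42 RPKM in *aly* and 0.206 to 12.01 RPKM in late libraries.

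Of 10 spermatogonial regulators 3 rose and 0 fell, with a median of 0.16, where 19.0% of all genes rose. Against LC1 alone 1 rose and the median was -0.14, and against LC2 alone 4 rose and it was 0.86. *bam*, which ends the spermatogonial divisions, had 45.0 and 41.2 RPKM in *aly*, against 5.54 to 18.2 RPKM in late libraries (2.19 ± 0.73, adjusted p = 0.0256), and 37.8 RPKM in EC. *zpg*, a germline gap junction protein, had 38.0 and 31.1 RPKM in *aly*, against 5.29 to 24.2 RPKM in late libraries (1.94 ± 0.56, adjusted p = 0.0117), and 39.3 RPKM in EC. Both calls were lost without either *aly* library. *Rbp9*, an RNA-binding protein, had 37.9 and 41.9 RPKM in *aly*, against 4.96 to 12.5 RPKM in late libraries (2.30 ± 0.38, adjusted p = 0.000162), and kept its call without any 1 library. *vas* and *nos*, germ cell genes, had differences of 0.16 each, with SE of 0.65 and 0.71.

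In the piRNA pathway, which silences transposons in the germline, 5 of 13 genes rose and 0 fell, with a median of 0.89, where 19.0% of all genes rose. With library quantiles made equal 8 rose, and against LC1 alone 2 did, where 3527 and 938 of all genes rose. The helicase *armi* had 108 and 124 RPKM in *aly*, against 7.39 to 55.6 RPKM in late libraries (2.30 ± 0.44, adjusted p = 0.000687), and 111 RPKM in EC. The nuclease *zuc*, *CG14303* (*qin*), *spn-E* and *AGO3* rose, with differences of 1.80, 1.54, 1.28 and 1.15, and each of these calls was lost without either *aly* library. Over the fits without 1 library, 1 to 6 of the 13 rose. *aub* had 11.6 and 14.5 RPKM in *aly*, against 6.98 to 62.7 RPKM in late libraries (-0.05 ± 0.52) and 267 RPKM in EC, against which it fell. The library LC1 b stood apart here, with 62.7 RPKM of *aub*, where no other late library was above 14.7 RPKM. *squ* (-0.78 ± 0.35) and *piwi* (-0.78 ± 0.64) had negative differences without a call.

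Markers of other cell types differed between the groups, and their part in the results was not tested. A library holds a whole cyst, so fewer cells of a type and less RNA per cell cannot be told apart. Among markers of haemocytes, *Hml* had 30.3 and 23.5 RPKM in *aly*, against 0.290 to 7.66 RPKM in late libraries (2.78 ± 0.48, adjusted p = 0.000272), and *Pxn* 34.9 and 38.1 RPKM in *aly*, against 1.13 to 7.96 RPKM (2.995 ± 0.49, adjusted p = 0.000151). *Yp2*, a yolk protein gene, had 8.53 and 10.94 RPKM in *aly*, against 0 to 0.197 RPKM in late libraries, and rose. The fat body gene *Lsp2* had 1.59 and 3.43 RPKM in *aly*, against 9.42 to 131 RPKM in late libraries, and fell, as did *Yp3*, *Fbp1* and *Rfabg* (-2.52, -2.81 and -3.02). Of 9 haemocyte and fat body markers at 8 RPKM or more 3 rose and 4 fell. Over all genes 19.0% rose and 24.8% fell. Summed over the 11 such markers found, *aly* libraries held 122 and 130 RPKM and late libraries 51.8 to 266 RPKM. *He* was at 0.909 RPKM in 1 *aly* library and at 0 in the other 7. Accessory gland and seminal vesicle markers summed to 22.6 and 14.0 RPKM in *aly*, against 70.4 to 253 RPKM in late libraries. At 8 RPKM or more 2 of 3 fell, where 24.8% of all genes fell. Of these, *Acp70A* was listed at 0 in both *aly* libraries and at 19.1 to 67.6 RPKM in late ones. *Acp63F* was at 12.2 and 9.24 RPKM in *aly* and at 0 in all late libraries, and was not fitted.

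Somatic cyst cell markers were present in both groups. *eya* had 26.8 and 21.9 RPKM in *aly*, against 21.7 to 63.0 RPKM in late libraries, *zfh1* 9.67 and 9.41 RPKM against 10.3 to 33.6 RPKM, and *tj*, of early cyst cells, at most 3.18 RPKM anywhere. Out of 6 at 8 RPKM or more *Egfr* and *Wnt4* rose (2.47 and 1.98) and *so* fell (-1.93), where 19.0% of all genes rose and 24.8% fell. All 3 calls were lost without the deeper *aly* library. The 8 markers summed to 94.1 and 67.6 RPKM in *aly*, against 65.2 to 144 RPKM in late libraries. Of the 9 hub genes, 7 at 8 RPKM or more, 1 fell, a share below the 24.8% of all genes. It was *os*, the hub's JAK-STAT ligand, with 3.0 and 0.411 RPKM in *aly*, against 11.04 to 35.3 RPKM in late libraries, a call lost without the shallower *aly* library. *Fas3* stayed at or below 2.66 RPKM. Muscle genes *Mhc*, *Tm2* and *up* were at or below 8.62 RPKM in all 8 libraries. Of 4 muscle genes at 8 RPKM or more 1 rose and 1 fell, near the 19.0% and 24.8% of all genes. *Mlc1* rose, at 9.65 and 9.55 RPKM in *aly* against 0 to 2.34 RPKM in late libraries. The muscle actin *Act87E* fell, at 2.88 and 3.27 RPKM in *aly* against 143 to 240 RPKM in late libraries. The 14 muscle markers with recovered reads summed to 56.4 and 39.3 RPKM in *aly*, against 176 to 276 RPKM in late libraries. *Act87E* alone made up most of the late sums, so they do not describe the other muscle markers. Of heat shock genes, which respond to stress, 2 of 7 fell, near the 24.8% of all genes, with *Hsp22* at 1.40 and 0.925 RPKM in *aly* against 22.1 to 45.3 RPKM in late libraries, and 0 rose. Their list median was -0.57, and 0.60 with equal library quantiles, where 5 rose, as did 3527 of all genes.

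The calls rest on *aly* and late values, which are given here as a description only. Genes that fell had medians of 5.13 RPKM in *aly* and 134 RPKM in late spermatocytes, and genes that rose 44.5 RPKM in *aly* and 10.6 RPKM in late spermatocytes. In stages outside the contrast, genes that fell had medians of 5.27 RPKM in EC and 0 in S4, S8 and S16 spermatogonia, against 36.6 RPKM in EC and 15.1 RPKM in S16 for all genes. Of the genes that fell 39.8% reached 8 RPKM in EC and 16.9% in S16, against 75.1% and 56.7% of all genes. Genes that rose were near all genes, with medians of 35.9 RPKM in EC and 16.9 RPKM in S16, where 60.8% reached 8 RPKM. In the lengths used to solve for reads, genes that fell were short, with a median of 1211 bases. Genes that rose had 2547 bases and those without a call 1710 bases. For 10318 of the 12810 genes this was the smallest length that gave whole reads in every stage, which need not be the annotated one. Only a CG or CR number names 73.0% of the genes that fell, 45.9% of those that rose and 52.6% of the rest.

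On BDGP6.54 the calls were spread unevenly over the chromosomes. Of 1350 X-linked genes 16.2% fell, against 26.7% of 7281 genes on chromosomes 2 and 3, and 21.3% rose, against 18.5%. By arm 29.0% of genes fell on 2L, 28.6% on 2R, 24.8% on 3L and 24.7% on 3R. Median values on the X were 37.2 RPKM in *aly* and 32.0 RPKM in late spermatocytes, and on chromosomes 2 and 3 they were 40.4 RPKM in *aly* and 48.5 RPKM in late spermatocytes. The lower share of X-linked decreases was 16.3% against 26.5% with library quantiles made equal. It was 14.8% against 24.6% when libraries were scaled to total reads. On chromosome 4, 7 of 43 genes fell, and 5 of 6 genes placed on the Y. Non-coding RNA genes fell in 104 of 186 cases (55.9%) and rose in 11, with medians of 4.03 RPKM in *aly* and 39.9 RPKM in late spermatocytes. Protein-coding genes fell in 2040 of 8424 cases (24.2%) and rose in 1621.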

How the data were processed

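Values are RPKM per the file headers, which also write cRPKM. The authors deposited 1 value per stage. Tools listed in the submitters' processing notes are edgeR and Bowtie 0.12.7, without saying what each did. The sources used here give neither the build nor the annotation, nor how duplicate reads were treated.

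Each value is a plain mean over libraries of reads divided by gene length and an effective library size. Whole reads per library could therefore be solved for, in 12804 of 12810 genes. The effective size was not the number of reads recovered. It was 3360827 against 4442827 reads in LC1 a, 4905736 against 5108373 in *aly* a and 3703867 against 2777202 in S8 a. With libraries scaled to total reads instead, 1947 genes rose and 2070 fell. The solving was tested on simulated means. Recovered libraries are lettered by size and carry no replicate number. Libraries within *aly*, LC1 and LC2 differed by more than the sampling of reads.

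limma 3.58.1 (R 4.3.3) fitted log2(RPKM + 1) of 20 libraries with 9 group means and a variance trend (residual degrees of freedom 11, prior 4.28), over 11809 genes. The contrast was *aly* minus the plain mean of LC1 and LC2, two-sided, with Benjamini-Hochberg adjustment over all genes fitted. A call needs adjusted p under 0.05 and 8 RPKM on the higher side. Genes named are the 12 largest differences of stage values each way among calls whose *aly* and late libraries do not overlap, the markers, *aly*, and from each list up to 5 genes with the largest differences and those going the other way. Further list members were named after their values were seen. Of 301 symbols in 23 lists 281 matched. Members and lists were chosen with earlier results of these data known. Ensembl BDGP6.54 gave the position of 12208 genes, by identifier. Alternatives were another pseudocount, filter, scaling, late set or library set, and a correction of reads for the limit of 1 read per base, -length × ln(1 - reads / length), chosen after seeing the data. Promoter and protein sequences were not analysed here.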

Additional observations from a re-analysis of the deposited data

Results flagged for a closer look

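In 10 of 261 named genes and list members both *aly* libraries lay above all libraries of one late set and below all of the other, so the sign of the difference depends on the late set. How many of all genes do so was not counted, so 10 of 261 is a description only. Whether the 2 differences differ was not tested. In the comparison above 0 of the 10 is called, but there the late value is a mean of sets on either side of *aly*. Against LC1 and LC2 in this order, *shg* (E-cadherin) differed by -0.21 and 2.93, *mei-P26* by -0.99 and 1.31, *hubl* by -1.38 and 0.99, *kl-5* by -0.70 and 1.52, *tud* by -0.50 and 1.21, and *bgcn* by -0.69 and 0.31 on the log2 scale. The other 4 lay above LC1 and below LC2. *Lsp1alpha* differed by 1.43 and -3.05, *Cks30A* by 0.28 and -0.77, *CG5703* (*ND-24*) by 0.30 and -0.42, and *CoVb* (*COX5B*) by 0.11 and -0.47.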

How the results depend on the processing

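The counts of genes that fell stayed within 1.5 times the value given, under every setting run. Counts of genes that rose did not. With limma they were 938 against LC1 alone and 3527 with library quantiles made equal, against 1724. They were 2902 (with 2845 lower) with libraries of *aly*, LC1 and LC2 only. Leaving out 1 library gave 772 to 1783 higher, with 785 without the deeper and 772 without the shallower *aly* library, fits that take the lone *aly* library's spread from the other groups, and 1665 to 2350 lower. At least 4-fold higher were 395 genes with a pseudocount of 4, 1400 against LC2 alone and 1377 with equal stage quantiles, against 780, and 723 to 938 without 1 library. The cause was not tested. Equal library quantiles moved the median difference of all genes to 0.388, against 0.036. Scaling to total reads moved it to 0.191 and the correction for the read limit to 0.124. Of 28 named genes over 17 settings, 475 of 476 values kept sign and call. The exception is *aly*, which passed the test with libraries of *aly*, LC1 and LC2 only. Most of the 28 were chosen as the 12 largest called differences each way without overlap of libraries. Their stability follows from that choice and does not extend to other calls. Several calls of list members were lost without 1 library, as given above. No paired analysis was possible because recovered libraries carry no replicate number. Depth limits genes near 0 in *aly*, and the read limit those near 1 read per base.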
